A study of Mus musculus with 5 samples.

Results

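The 9 genes described here are markers of lipid-associated macrophages, taken by symbol: Trem2, Cd84, Itgax, Cd9, Gpnmb, Atp6v0d2, Lgals3, Spp1 and Mitf. All 9 are among the 32285 genes of both matrices of single nuclei RNA sequencing (snRNAseq) from mouse interscapular brown adipose tissue (iBAT). Their UMIs (unique molecular identifiers, each standing for 1 captured RNA molecule) were summed in macrophage nuclei and in nuclei of other types. A nucleus was gated as a macrophage where it held a UMI of at least 3 of 4 genes that are no members, namely Mrc1, F13a1, Ptprc and Dock2.

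The study asked how iBAT shrinks and loses function with age and when brown adipocytes lack syntaxin 4. One matrix holds a library from 3-month-old littermate controls (WT) and a library from 3-month-old Ucp1-STX4KO mice, which carry floxed Stx4 alleles and Cre under the Ucp1 promoter, so that deletion is expected in brown adipocytes and not in macrophages. The other holds 3 libraries from C57BL/6J mice of 2, 12 and 24 months, with no genotype given in the labels. The methods name 4 male mice without saying how they were divided, so there is 1 library per condition, no replicate and no test across mice. The suffix of each barcode, a digit from 1 to 3, separates the libraries, but nothing ties it to a genotype or an age. Libraries are therefore named by suffix, and no value here is a comparison of WT with Ucp1-STX4KO mice or of ages. Nuclei were sorted by flow cytometry, so each share is a share of sorted nuclei.

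Lipid-associated macrophages gather in fat where adipocytes die or overfill. They engulf lipid and dead cells through surface receptors such as Trem2, break the cargo down in acidified lysosomes, and express a shared set of receptors, lysosomal proteins and secreted proteins. Mitf belongs to the MiT/TFE family of transcription factors, which bind lysosomal genes and act in the cells that resorb bone as well as in macrophages.

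The 3-month matrix held 20307 nuclei, with a median of 5998 UMIs per nucleus for suffix 1 and 3284.5 for suffix 2. The aging matrix held 27842 nuclei, with medians of 1247 to 1719.5 UMIs by library. Although the labels call the cells brown adipocytes, clustering without the 9 genes gave 14040 adipocyte-like nuclei in the 3-month matrix and 3001 in the aging matrix. Between libraries, 23 barcodes were shared in the 3-month matrix and 99 in the aging matrix. Stx4a, the deleted gene, was at 60.2 CPM (CPM is the number of UMIs of a gene per 1000000 UMIs of the class of nuclei; 95% interval 58.4 to 62.0) in adipocyte-like nuclei of suffix 1 and at 49.0 (46.2 to 52.0) in those of suffix 2, so it was present in both. Every interval is exact at 95% and covers counting error only, not the difference between mice or libraries.

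The gate took 724 nuclei of the 3-month matrix, 88 of 11201 with suffix 1 (0.786%, 0.631 to 0.967) and 636 of 9106 with suffix 2 (6.98%, 6.47 to 7.53). It took 113 of the aging matrix, 33, 47 and 33 by suffix. Their depth was close in the 3-month libraries, with medians of 3197.5 and 3124.5 UMIs. The 9 macrophage markers include the 4 gate genes, so the gate in part sets their presence and sums in gated nuclei. All 9 had UMIs in the gated nuclei of both 3-month libraries, summing to 4861 and 5511 CPM. All 8 adipocyte markers did too, at 6478 CPM in suffix 1 and 3761 in suffix 2, and their part in the results was not tested. Of 8 T or NK lymphocyte markers, 7 were at 0 in gated nuclei of suffix 1, and the list summed to 3.84 CPM there and 242 in suffix 2. One cluster of each matrix was macrophage-like, with 1337 nuclei at 3 months (92 and 1245 by suffix) and 368 in the aging matrix. Of these, 647 and 103 were gated, and 77 and 10 gated nuclei lay in other clusters.

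The genes differ in length and structure, so levels are compared within a gene and not between genes. In the GRCm38 annotation (GENCODE), the receptors Trem2, Cd84, Itgax and Cd9 are at chr17:48346401-48354147, chr1:171839697-171890718, chr7:128129547-128150657 and chr6:125460266-125494791. Gpnmb is at chr6:49036546-49070929, Atp6v0d2 at chr4:19876841-19922605, Lgals3 at chr14:47367751-47386160, Spp1 at chr5:104435118-104441050 and Mitf at chr6:97807052-98021349. Cd9 and Atp6v0d2 are on the minus strand and the others on the plus strand. The gene bodies span 5.93 kb (Spp1) to 214 kb (Mitf), and introns make up 36.2% of Trem2 and 97.1% of Mitf, which matters for nuclei because much of their RNA is unspliced. Cd9 overlaps 2 annotated genes on the opposite strand and Mitf 1, and the effect of these overlaps was not tested. Spp1 overlaps 1 gene on its own strand, so some of its reads may belong to that gene.

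Because the genes turned out to be detected in the same nuclei, their promoters were read for shared letters. RefSeq (GRCm38.p6) promoters of 300 bases, 250 before to 50 after the start, were matched for 8 of the 9 genes, 11 promoters in all, and not for Atp6v0d2. In all, 5 strings were searched on both strands. TGACTCA, the letters that AP-1 factors bind, was in the promoters of Cd84, Gpnmb and Itgax and in 5.20% of all 32851 promoters. The 30 bases around each match are shown on the strand that carries it, with TGACTCA in capitals.
Cd84: aaacaagaaaatTGACTCAagagaaactga
Gpnmb: gccaggggcaagTGACTCAtgagcacgagt
Itgax: aagttgtcagcgTGACTCAgaggaggtggg
These are chr1:171839457-171839486 on the minus strand, chr6:49036514-49036543 on the plus strand and chr7:128129483-128129512 on the minus strand. Counted from the RefSeq starts, the match began 229 bases before the Cd84 start, 8 bases after the Gpnmb start and 56 bases before the Itgax start. The GENCODE start of Gpnmb given above lies after its RefSeq start and after the 30 bases shown. GAGGAA, a string within sites of the macrophage factor PU.1, was in promoters of Trem2, Cd84 and Spp1 and in 28.3% of all promoters. The strings that MiT/TFE factors bind were CACGTG (7.15% of all promoters), TCACGTG (3.77%), which holds CACGTG, and TCATGTG (3.77%), and none of them was in the 11 promoters. A match describes letters in a window, not binding.

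Among the surface receptors, Trem2, which binds lipids and signals through the adaptor Tyrobp, had 3 UMIs in the 88 gated nuclei of suffix 1 and 133 in the 636 of suffix 2. These are 5.75 CPM (1.19 to 16.8) and 50.7 CPM (42.5 to 60.1), a ratio of 8.82 (2.95 to 43.3). Cd84, a self-binding receptor of the SLAM family, was at 224 CPM (186 to 269) in suffix 1 and at 870 (835 to 907) in suffix 2, which is 3.88 times higher (3.22 to 4.71). Both receptors were higher in suffix 2 with intervals apart, but Cd84 was broad, with a UMI in 41 of 88 and 468 of 636 gated nuclei, while Trem2 was seen in 3 and 108.

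Itgax, the integrin chain CD11c, had 2 UMIs in gated nuclei of suffix 1 and 279 in those of suffix 2, at 3.84 CPM (0.465 to 13.9) and 106 CPM (94.3 to 120). Cd9, a tetraspanin that organises membrane proteins, had 2 UMIs in suffix 1 and 234 in suffix 2, at 3.84 and 89.3 CPM (78.2 to 101). Their ratios were 27.7 (7.61 to 230) and 23.3 (6.37 to 193), so wide because suffix 1 held 2 UMIs of each.

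The genes for lysosomal and secreted proteins had more UMIs, and so narrower intervals. Gpnmb, a membrane glycoprotein of lysosomes and phagosomes, was at 94.0 CPM (69.5 to 124) in gated nuclei of suffix 1 and at 2188 (2131 to 2245) in those of suffix 2, a ratio of 23.3 (17.6 to 31.5). Atp6v0d2, a subunit of the proton pump that acidifies lysosomes, was at 36.4 CPM (21.9 to 56.9) and 1650 (1602 to 1700), a ratio of 45.3 (29.0 to 75.3). Lgals3, galectin-3, which binds sugars on damaged lysosomes and outside cells, was at 111 CPM (84.5 to 144) and 1256 (1213 to 1299), a ratio of 11.3 (8.71 to 14.9). For these 3 genes the gated nuclei of suffix 2 were higher by over 8 times at the lower end of each interval. Spp1, the secreted protein osteopontin, had 0 UMIs in gated nuclei of suffix 1, where 3 UMIs would be 5.75 CPM, and 10 UMIs in 7 nuclei of suffix 2 (3.81 CPM, 1.83 to 7.01). No difference of Spp1 was detectable at this depth.

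Mitf was at 552 CPM (491 to 620) in gated nuclei of suffix 1 and at 1121 (1081 to 1162) in those of suffix 2, a ratio of 2.03 (1.80 to 2.30). It had the lowest ratio of the 8 genes with at least 20 UMIs, and it was seen in nearly the same share of nuclei, 72 of 88 (81.8%) and 530 of 636 (83.3%).

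In total, 8 of these 8 genes were at least 2-fold higher in CPM in gated nuclei of suffix 2, against 12.3% of the 10371 genes with at least 20 UMIs. The filter in part sets this count, since Trem2, Itgax, Cd9 and Atp6v0d2 had under 20 UMIs in suffix 1 and passed it through suffix 2, and Spp1 did not pass. Cd84, Gpnmb, Lgals3 and Mitf had over 20 UMIs in both libraries. None of the 8 was at least 2-fold lower, against 15.3% of the genes tested. In macrophage-like nuclei, whose clustering did not use the 9 genes, it was 7 of 8 against 13.3%, with Mitf at 1.82 (1.61 to 2.06). There, Cd9 had 0 UMIs in the 92 nuclei of suffix 1 and 419 in suffix 2. With 3 UMIs put in for the 0 the ratio would be 15.8, and the lower end of its exact interval was 12.8. The genes of the gate, whose levels the gate itself shapes, did not all move that way. In gated nuclei Mrc1 was at 1047 and 807 CPM, F13a1 at 902 and 219, Ptprc at 564 and 918, and Dock2 at 581 and 1046. With 1 library per condition, genotype, mouse and library preparation cannot be told apart as sources of any of these differences.

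**Figure D1:**
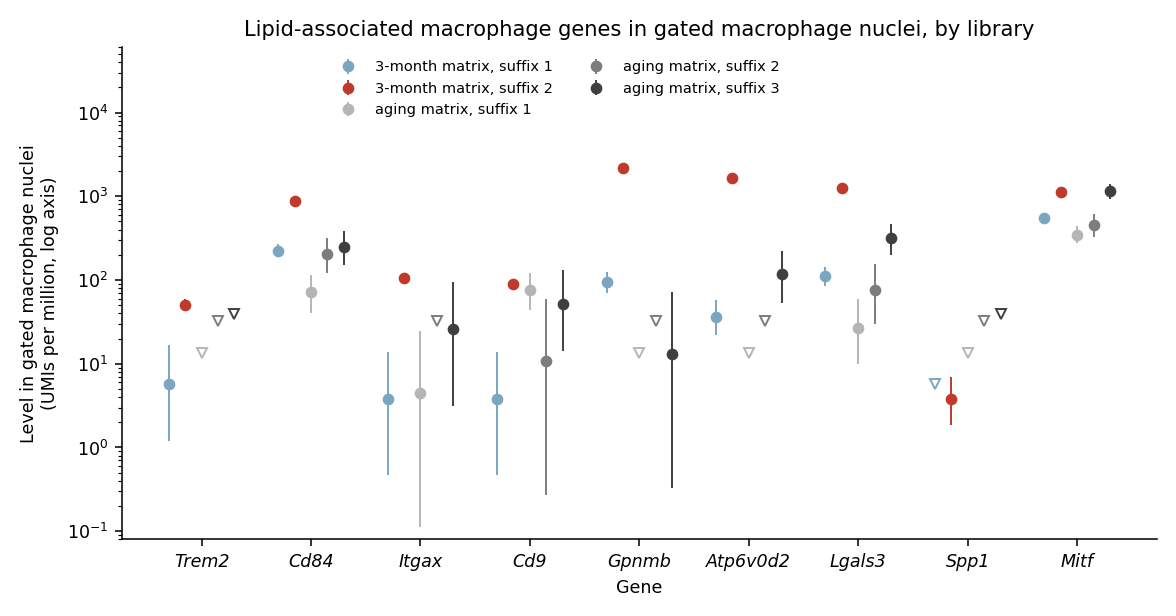
CPM of each gene in gated macrophage nuclei (y axis, log scale) for the 2 libraries of the 3-month matrix and the 3 of the aging matrix, with exact Poisson 95% intervals for counting error; an open triangle marks the level of 3 UMIs where no UMI was found. Gpnmb stood at 94.0 CPM in suffix 1 and 2188 in suffix 2 of the 3-month matrix, while in the aging matrix only suffix 3 had a Gpnmb UMI in gated nuclei, and it had 1.

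In suffix 1 the UMIs of Gpnmb and Atp6v0d2 were held by a few nuclei. Of 88 gated nuclei, 4 had a Gpnmb UMI (4.55%, 1.25 to 11.2), and 1 of them held 28. Over gated and macrophage-like nuclei together, suffix 1 had 54 Gpnmb UMIs in 5 of 100 nuclei, and the top 3 nuclei held 88.9% of them. In suffix 2 the gene was widespread, with 10247 UMIs in 914 of 1314 nuclei, of which the top 3 held 3.54%. The value for suffix 1 therefore rests on a handful of nuclei, and Atp6v0d2 was alike, with 21 UMIs in 7 of 100 nuclei. Lgals3 was less concentrated, with 66 UMIs in 28 of the 100 nuclei and 45.5% of them in the top 3, and Cd84 and Mitf were seen in 41 and 72 of the 88 gated nuclei.

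Against all other nuclei of the same matrix, 8 of 8 genes were at least 2-fold higher in the gated nuclei of the 3-month matrix, where 17.2% of 18218 genes were. The ratios were 24.1 (19.2 to 30.1) for Trem2, 40.2 (37.9 to 42.6) for Cd84, 29.3 (24.9 to 34.4) for Itgax and 15.2 (upper end 17.7) for Cd9, which stood at 75.1 CPM in gated and 4.95 in other nuclei. For Gpnmb the ratio was 30.3 (29.2 to 31.3), for Atp6v0d2 37.5 (35.9 to 39.1) and for Lgals3 29.5 (28.1 to 30.8). Mitf stood at 1027 CPM in gated and 199 CPM in other nuclei, a ratio of 5.15 (4.96 to 5.35). Spp1 had 10 UMIs in gated nuclei and 8 in all others. By library it was 7 of 7 genes in suffix 1 (background 16.2%) and 8 of 8 in suffix 2 (18.0%). In suffix 1, Itgax and Cd9 were called on 2 UMIs each in gated nuclei. The pooled ratios mix the libraries, because most gated nuclei had suffix 2 and most others suffix 1. Within suffix 2 the ratio was 12.0 (11.6 to 12.4) for Gpnmb, 14.8 (14.2 to 15.4) for Atp6v0d2, 11.6 (11.1 to 12.2) for Lgals3, 15.9 (14.9 to 16.8) for Cd84, 9.40 (7.49 to 11.8) for Trem2, 12.2 (10.4 to 14.4) for Itgax and 6.95 (5.92 to 8.15) for Cd9. Within suffix 1 it was 102 (69.1 to 148) for Gpnmb and 165 (125 to 217) for Cd84. The other nuclei of suffix 2 included 678 macrophage-like nuclei that failed the gate. Those held 4512 of the 6797 Gpnmb UMIs of the other nuclei. In suffix 1 there were 12 such nuclei, with 5 of 70 Gpnmb UMIs. The ratios of the 2 libraries are thus set against unlike nuclei. The lowest ratios in suffix 1 were those of Mitf, 2.79 (2.48 to 3.14), and Cd9, 3.58 (0.427 to 13.4), whose interval includes 1. With only nuclei inside the stated UMI and gene limits, 137 nuclei were gated and 5 of the genes were at least 2-fold higher, Gpnmb was at 1.36 (1.13 to 1.63), Itgax at 1.89 (0.974 to 3.37), and Cd9 turned to 0.898 (0.354 to 1.91).

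The UMIs of most of these genes lay in few nuclei. Gated and macrophage-like nuclei together were 6.96% of the nuclei of the 3-month matrix and 4.10% of its UMIs, and they held 85.1% of Atp6v0d2 UMIs, 84.2% of Cd84, 81.4% of Gpnmb, 76.7% of Lgals3, 75.5% of Trem2 and 74.0% of Itgax. Cd9 was less confined, at 54.3% (50.8% at the lower end of its interval). Mitf was mostly elsewhere, with 5142 of its 25730 UMIs in these nuclei (19.5% to 20.5%). These shares follow suffix 2, where such nuclei were 14.4% of all and held 81.8% of Gpnmb and 45.9% of Mitf UMIs. In suffix 1, where they were 0.893% of all, they held 87.5% of Atp6v0d2 UMIs (21 of 24), 59.1% of Cd84, 52.4% of Lgals3, 45.4% of Gpnmb, 39.1% of Itgax (9 of 23), 2.41% of Cd9 and 2.23% of Mitf. In the gate alone the shares were smaller, for example 45.7% for Gpnmb, because 690 macrophage-like nuclei, 678 of them with suffix 2, failed it.

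Those 678 nuclei carried the genes at levels as high as the gated ones or higher. Gpnmb was at 2906 CPM (2822 to 2992) in them, Atp6v0d2 at 1863 (1796 to 1932), Lgals3 at 1508 (1448 to 1571) and Trem2 at 76.6 (63.5 to 91.7), and each of these intervals lies above that of the gated nuclei of suffix 2. Their median depth was lower, 1829 UMIs. Within macrophage-like nuclei of suffix 2, those with all 4 gate genes had the lowest levels. Gpnmb was at 1799 CPM with 0 gate genes, 2215 with 1, 3219 with 2, 2772 with 3 and 866 (774 to 966) with 4, and Atp6v0d2 at 1091, 1329, 2097, 2092 and 559 (486 to 640). Trem2 was at 86.1, 77.3, 75.5, 62.4 and 21.4 (9.23 to 42.1). The gate thus left out many of the nuclei richest in these genes, and its strictest form kept those with the least.

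**Figure D2:**
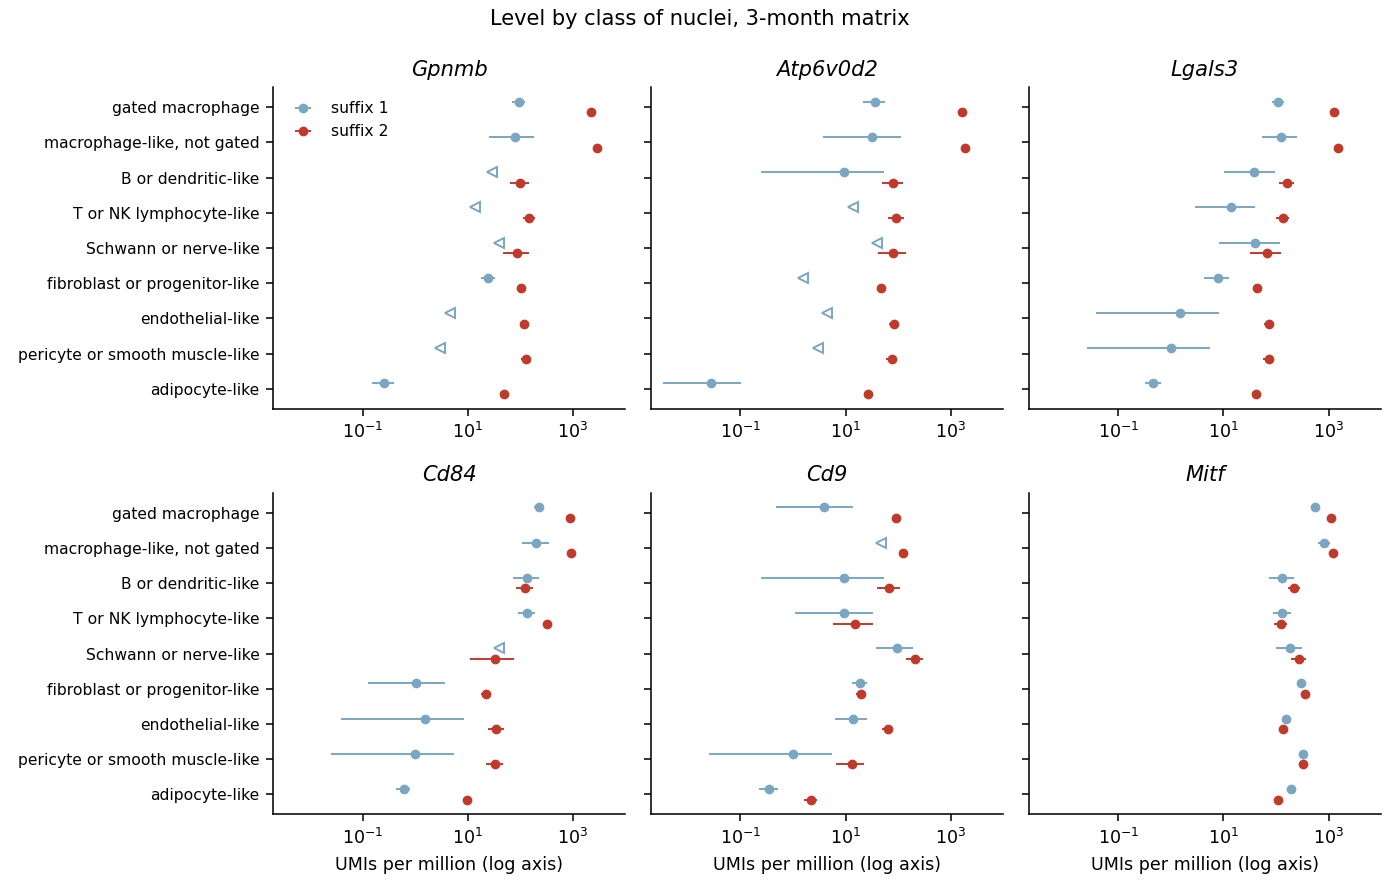
Level of 6 of the genes (x axis, CPM, log scale) in macrophage nuclei and in nuclei of other types (y axis) of the 3-month matrix, in blue for suffix 1 and red for suffix 2, with exact Poisson 95% intervals; an open triangle marks the level of 3 UMIs where no UMI was found. In suffix 2 Gpnmb was at 2188 CPM in gated nuclei, 2906 in macrophage-like nuclei outside the gate and 48.3 in adipocyte-like nuclei.

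In nuclei that should lack these genes, the levels were low but differed between the libraries. In adipocyte-like nuclei, Gpnmb was at 0.252 CPM (0.149 to 0.398) in suffix 1 and 48.3 (45.5 to 51.3) in suffix 2, Atp6v0d2 at 0.0279 and 27.0, and Lgals3 at 0.461 and 41.7. Gpnmb had a UMI in 23.8% of the adipocyte-like nuclei of suffix 2 (median depth 5081 UMIs) and 66.0% of its gated nuclei (3124.5). After each nucleus was thinned to 1000 UMIs, which left out 14 of 636 gated and 3 of 3747 adipocyte-like nuclei, these shares were 5.66% (4.94 to 6.45) and 53.5% (49.5 to 57.5). Thinned shares in gated and adipocyte-like nuclei of suffix 2 were 53.4% and 3.58% for Atp6v0d2, 55.1% and 4.43% for Lgals3, and 50.3% and 1.15% for Cd84. For the rarer Trem2 they were 28 of 622 and 8 of 3744 nuclei, for Itgax 7.40% and 0.321%, and for Cd9 6.59% and 0.267%. The order of gated above adipocyte-like held for all 7 with intervals apart.

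Free RNA that enters droplets gives all types a share of the same mixture. In suffix 2, Atp6v0d2 had 0.701 UMIs per Gpnmb UMI in macrophage-like nuclei (0.680 to 0.722), 0.558 (0.504 to 0.616) in adipocyte-like nuclei, 0.598 (0.438 to 0.811) in pericyte-like nuclei and 0.710 (0.534 to 0.940) in endothelial-like nuclei. The last 2 intervals include the macrophage value. Lgals3 per Gpnmb UMI was 0.544 (0.526 to 0.562) in macrophage-like and 0.863 (0.790 to 0.942) in adipocyte-like nuclei, and 1 adipocyte-like nucleus held 33 Lgals3 UMIs. How much of the signal outside macrophages was free RNA was not tested.

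One type stood apart. Fibroblast or progenitor-like nuclei of suffix 1 had 47 Gpnmb UMIs, in 32 of 389 nuclei (8.23%, 5.69 to 11.4), and no Atp6v0d2 UMI, so that Atp6v0d2 per Gpnmb UMI was 0 (up to 0.0816) against 0.388 (0.216 to 0.671) in gated nuclei of that library. Their Gpnmb level, 24.4 CPM (17.9 to 32.4), lay above the 0.252 CPM of the adipocyte-like nuclei. In the aging matrix, fibroblast or progenitor-like nuclei had 18, 26 and 61 Gpnmb UMIs by suffix (18.7, 37.9 and 53.8 CPM) and 0, 0 and 2 Atp6v0d2 UMIs. Atp6v0d2 was scarce in that whole matrix, with 0, 9 and 27 UMIs over all nuclei by suffix. Nuclei neither gated nor macrophage-like had 0, 0.137 and 0.108 Atp6v0d2 UMIs per Gpnmb UMI. Few Atp6v0d2 UMIs were therefore not particular to fibroblast or progenitor-like nuclei there. In suffix 2 of the 3-month matrix, these nuclei had 439 Gpnmb and 198 Atp6v0d2 UMIs, a ratio of 0.451 (0.379 to 0.535) that lies below that of macrophage-like nuclei.

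Other members also had homes outside macrophages. Cd84 was at 133 and 324 CPM in T or NK lymphocyte-like nuclei of suffixes 1 and 2. Itgax was at 72.0 CPM in B or dendritic-like nuclei of suffix 2, and over the matrix its ratio of gated to B or dendritic-like nuclei was 1.51 (0.971 to 2.48), not distinguishable from 1. Cd9 was at 93.5 and 205 CPM in Schwann or nerve-like nuclei, above the 3.84 and 89.3 CPM of gated nuclei. Mitf was at 193 CPM in adipocyte-like nuclei of suffix 1 and 108 in those of suffix 2, and at 305 and 350 in fibroblast or progenitor-like and 322 and 324 in pericyte-like nuclei.

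The genes were detected together in single nuclei. Of gated nuclei, 497 of 724 had UMIs of at least 3 members (68.6%, 65.1 to 72.0), 18 of 88 in suffix 1 (20.5%) and 479 of 636 in suffix 2 (75.3%). At 1000 UMIs the shares were 3 of 88 (3.41%, 0.709 to 9.64) and 359 of 622 (57.7%, 53.7 to 61.6). The macrophage-like nuclei outside the gate had 70.8% (66.9 to 74.4) in suffix 2 at that depth, while adipocyte-like nuclei had 0.240% in suffix 2 and 0 of 10287 in suffix 1, which allows up to 0.0359% at the upper end of the exact interval. The median gated nucleus at its own depth had 1 member in suffix 1 and 5 in suffix 2, and 1 nucleus had all 9.

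**Figure D3:**
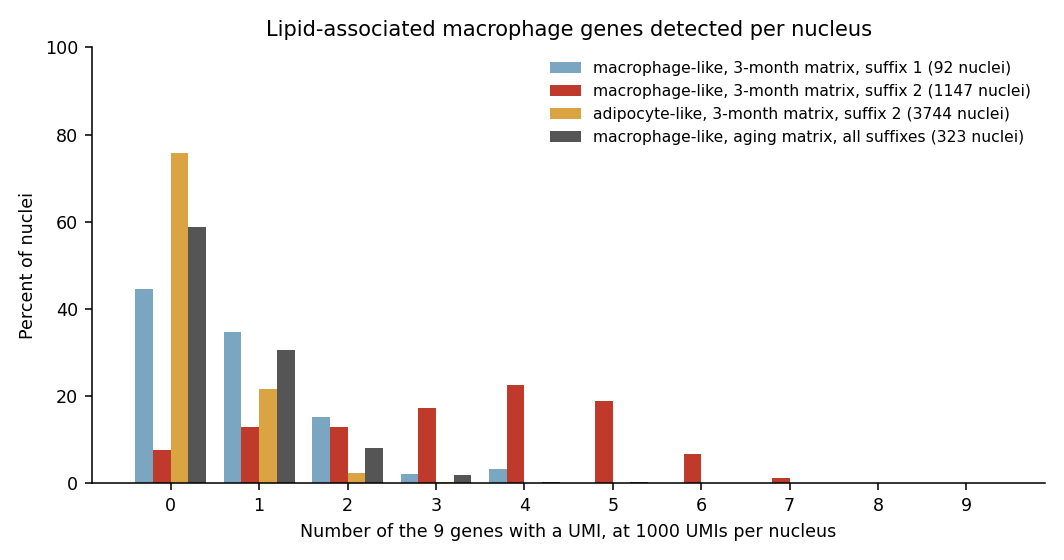
Percent of nuclei (y axis) by the number of the 9 genes with at least 1 UMI (x axis) after thinning to 1000 UMIs, in macrophage-like nuclei of suffixes 1 and 2 and adipocyte-like nuclei of suffix 2 of the 3-month matrix, and in macrophage-like nuclei of the aging matrix. In macrophage-like nuclei 66.8% had 3 or more in suffix 2 and 5.43% in suffix 1, and 2.48% in the aging matrix.

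Pairs were compared at 1000 UMIs within the 622 gated nuclei of suffix 2. Of 333 nuclei with Gpnmb, 270 had Atp6v0d2 (81.1%, 76.5 to 85.1), and of 289 without Gpnmb, 62 had it (21.5%, 16.9 to 26.6). Lgals3 was in 76.6% of nuclei with Gpnmb and 30.4% of those without, Cd84 in 65.2% and 33.2%, and Mitf in 68.8% and 48.1%. Gpnmb, Atp6v0d2, Lgals3 and Cd84 thus marked largely the same nuclei, with intervals apart for each of these pairs with Gpnmb.

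Trem2, though seen in 28 of these nuclei, was found with the same genes. Of the 28, 25 had Gpnmb (89.3%, 71.8 to 97.7), against 51.9% (47.7 to 55.9) of the nuclei without Trem2, and 25 had Cd84, against 48.5%. Itgax went with Atp6v0d2 in 40 of 46 nuclei (87.0%, 73.7 to 95.1), against 50.7% of the others. Mitf was less selective. Gpnmb was in 62.2% of nuclei with Mitf and 40.9% of those without, but for Cd84 the shares were 53.8% (48.6 to 59.0) and 45.3% (39.0 to 51.6), whose intervals overlap.

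Over all pairs of the genes with enough nuclei, the share was higher beside the partner in 33 of 35 pairs in suffix 2 at 1000 UMIs, with intervals apart in 21 and none lower with intervals apart. At their own depth, where a deep nucleus shows more of every gene, it was 35 of 35 and 28. In suffix 1 none of 9 pairs had intervals apart, and the few nuclei limit this: at own depth 4 of the 41 gated nuclei with Cd84 had Gpnmb and 6 had Atp6v0d2, against 0 of the 47 without.

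**Figure D4:**
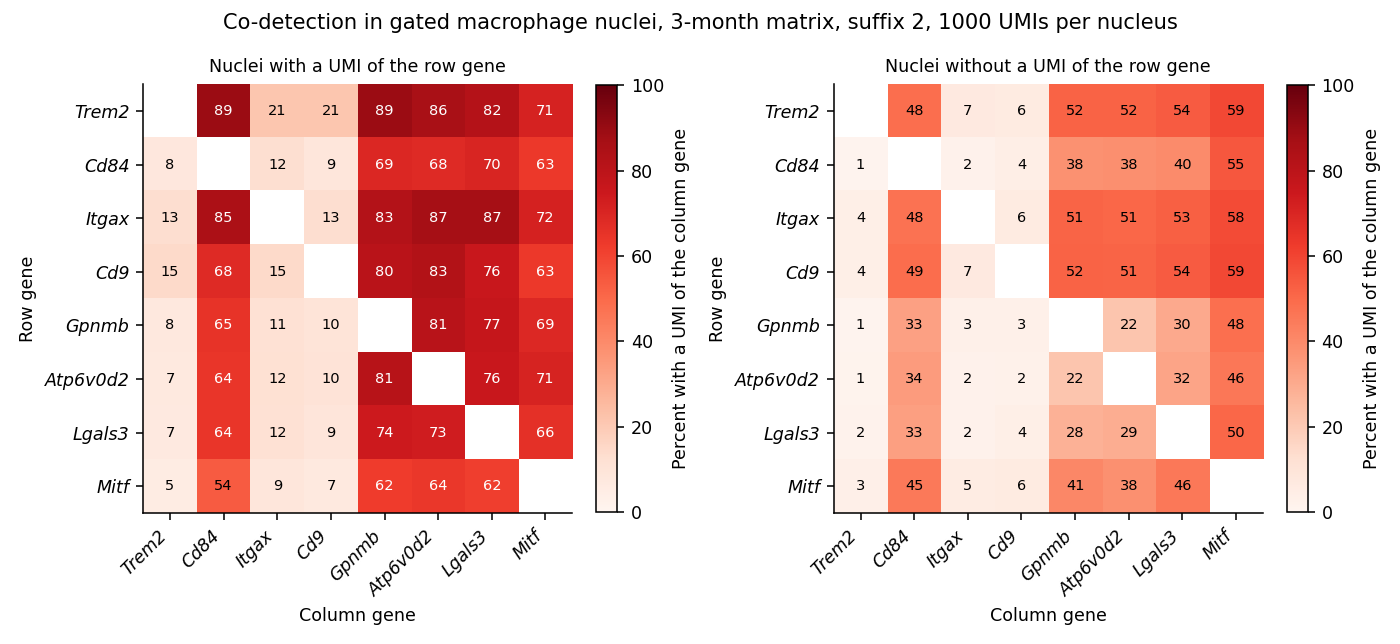
Percent of gated macrophage nuclei with a UMI of the column gene among nuclei that hold the row gene (left) and among those that do not (right), for 8 of the genes, in suffix 2 of the 3-month matrix at 1000 UMIs per nucleus. Atp6v0d2 was in 81.1% of the nuclei with Gpnmb and 21.5% of those without.

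The nuclei with many of these genes also differed in other macrophage genes. Gated nuclei of the 3-month matrix with at least 3 members (497) were set against those with none (41). Of these, 461 and 33 were also macrophage-like. Gated nuclei in other clusters included 42 B or dendritic-like, 12 T or NK lymphocyte-like and 12 fibroblast or progenitor-like nuclei. The cut divides a range, not a type: 89 gated nuclei had 2 members and 81 had 3. The 2 classes differed in depth, with medians of 3615 and 1465 UMIs, so values at 1000 UMIs within the macrophage-like nuclei of suffix 2 (766 against 87) are given beside them. A gene counts as higher or lower where the interval of its ratio lies above or below 1. The adipocyte markers summed to 3863 CPM in the 497 and 6199 in the 41 nuclei, and to 2935 and 3839 in the second pair. The macrophage markers, which include the gate genes, summed to 5475 and 5254, and to 5219 and 5161. The part of the adipocyte markers in these differences was not tested. A ratio off 1 was found for 4.94% and 7.20% of 9508 genes in the first comparison, and for 7.07% and 8.77% of 6291 in the second.

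Of 20 genes for lipid handling and lysosomes that are no members, 8 were higher and 3 lower, with a median ratio of 1.78 against 0.893 over all genes, 0.5 being added to each UMI sum for every median of ratios. At 1000 UMIs it was 8 higher and 3 lower of 19, with a median of 2.00 against 0.931. Lipa, the acid lipase of lysosomes, had a ratio of 8.72 (2.40 to 72.2), and of 4.32 (1.82 to 13.4) at 1000 UMIs. Psap, which activates lysosomal lipid breakdown, had 2.75 (1.97 to 3.95) and 3.78 (2.72 to 5.43). Ctss and Ctsd, lysosomal proteases, had 4.47 (2.61 to 8.41) and 4.14 (1.89 to 11.3), and Plin2, which coats lipid droplets, had 1.67 (1.27 to 2.26). Apoe and Lpl went the other way, at 0.309 (0.230 to 0.424) and 0.522 (0.446 to 0.615). The list was therefore split: hydrolases and exporters such as Abcg1 (3.95, 1.34 to 19.2) were higher, while a lipid carrier, a lipase that many fat cells express and the fatty acid receptor Cd36 (0.755, 0.642 to 0.893) were lower. At 1000 UMIs the 3 lower were Apoe, Lpl and Abca1.

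Of 14 measured MiT/TFE factors, pump subunits and genes of bone-resorbing cells, 6 were higher and none lower, with a median of 1.56. The 6 were Tfec, at 3.14 (1.21 to 11.6), and 5 pump subunits, of which Atp6v0a1 had 2.86 (1.93 to 4.43) and Atp6v1a 2.41 (1.37 to 4.69). At 1000 UMIs 5 of 13 were higher, with Atp6v0a1 at 3.72 (2.46 to 5.91). The paralogue Atp6v0d1, the widely expressed form of the subunit, had 2.19 (1.18 to 4.59). For Acp5 and Ctsk, known from osteoclasts, the intervals included 1.

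Of 5 measured genes of Trem2 signalling, Syk was higher, at 1.75 (1.29 to 2.45), but its interval at 1000 UMIs, 0.985 to 1.66, included 1. Among partners and receptors 3 of 6 were higher: Cd44, a receptor for osteopontin, at 3.11 (2.05 to 4.97), Slamf7, of the family of Cd84, at 3.06 (1.47 to 7.64), and Itgb2, the partner chain of Itgax, at 5.81 (1.03 to 231). At 1000 UMIs Cd44 and Slamf7 kept this side, at 3.26 and 5.52, and Itgb2 did not.

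Genes of resident macrophages ran against the members. Of 5 measured, 4 were lower and none higher, with a median of 0.372: F13a1 at 0.192 (0.147 to 0.254), Cd163 at 0.139 (0.0722 to 0.288), Stab1 at 0.376 (0.276 to 0.523) and Mrc1 at 0.754 (0.609 to 0.944). F13a1 and Mrc1 are gate genes, and a nucleus without F13a1 had to hold the other 3 to be gated. In macrophage-like nuclei, gated or not, the 2 genes had 0.0416 (0.0243 to 0.0689) and 0.460 (0.361 to 0.591) at 1000 UMIs. That class is not independent of the gate genes either. Clustering did not leave them out, and they are among the markers that named the cluster. Of 7 antigen presentation genes, 5 were lower, among them H2-Aa at 0.291 (0.197 to 0.444) and Cd74 at 0.232 (0.171 to 0.322), and Irf8 was higher, at 2.56 (1.09 to 7.94). Of 11 genes common to macrophages, 1 was higher, Mertk, the receptor for dead cells, at 4.26 (3.01 to 6.24), and 3 were lower. Neither of 2 measured monocyte genes, nor the 1 cell cycle gene, had an interval off 1.

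Graded by the number of members in a nucleus, macrophage-like nuclei of suffix 2 at 1000 UMIs fell into classes of 0 (87 nuclei), 1 or 2 (294), 3 or 4 (455) and 5 or more (311). F13a1 was at 690 CPM (526 to 888), 480, 41.8 and 9.65 (1.99 to 28.2) over these classes, and H2-Aa at 264, 252, 65.9 and 38.6. Mertk went up, at 540 (397 to 718), 912, 1855 and 1936 (1784 to 2097). Ptprc, carried by all leukocytes, was nearly level, at 839, 724, 747 and 897, with intervals that overlap between the first class and each other one. Csf1r, the receptor for the growth factor of macrophages, was at 299, 228, 141 and 106 (73.0 to 149), so genes common to macrophages did not all go one way.

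**Figure D5:**
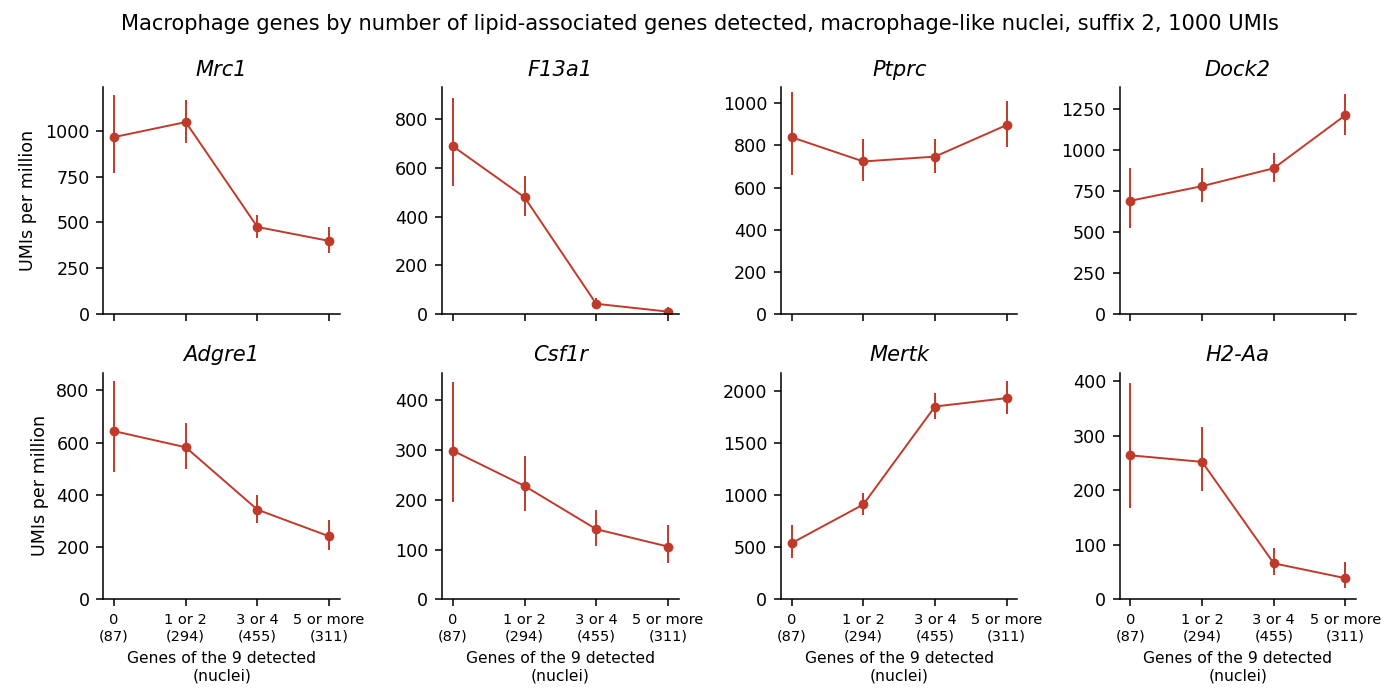
CPM of the 4 gate genes and 4 other macrophage genes (y axis, linear, from 0) by the number of the 9 genes detected (x axis, with the number of nuclei) in macrophage-like nuclei of suffix 2 of the 3-month matrix at 1000 UMIs, with exact Poisson 95% intervals. F13a1 was at 690 CPM with no member and 9.65 with 5 or more, and Mertk at 540 and 1936.

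Across all genes, those with the highest ratio between the 497 and the 41 nuclei were Lrp12, St18, Mamdc2, Colec12, Tnfaip2, Iqsec1, A330023F24Rik, Airn, Gpr137b and Fmn1. Since the 41 nuclei are few, genes were ranked with at least 3 UMIs assumed in them. Lrp12, a receptor of the LDL receptor family, had 1224 and 3 UMIs (522 and 34.6 CPM), a ratio of 15.1 (5.16 to 73.3), and of 11.0 (5.25 to 27.6) with the gated classes set at 1000 UMIs, where 110 nuclei of both libraries had no member. St18, a zinc finger factor, had a ratio of 11.6 (5.32 to 31.7), and Colec12, a scavenger receptor, had 9.83 (3.83 to 36.1). Gpr137b, a lysosomal membrane protein, had 7.59 (2.58 to 36.9). Airn, a non-coding RNA that overlaps Igf2r on the opposite strand, had 8.28 (5.01 to 14.8), and the effect of that overlap was not tested. Airn was the one of the 10 whose interval lay above 1 in the aging matrix too. There it had 2.82 (1.77 to 4.75) for nuclei with at least 2 members against none. In that comparison 15.2% of 3214 genes had an interval above 1, so 1 of 10 is not above that share. Some of the 10 had few UMIs there, such as Tnfaip2 with 2 and 0.

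The lowest ratios were those of Rnf144a, Cmah, Gm15581, Rtn1, Ifi213, Nrg2, Cd163, Ccdc3, H2-Ab1 and Lifr. Rnf144a had 84 and 65 UMIs, a ratio of 0.0478 (0.0342 to 0.0672). H2-Ab1, an MHC class II chain, had 0.153 (0.109 to 0.222), and Lifr, the receptor for leukaemia inhibitory factor, 0.155 (0.101 to 0.245). With classes set at 1000 UMIs the intervals of Ifi213 and Ccdc3 included 1, while Cd163 had 2 and 36 UMIs, a ratio of 0.0169 (0.00197 to 0.0656).

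The same lists were set between the libraries in all gated nuclei, where 15.7% of 10371 genes were higher in suffix 2 and 22.0% lower. Of the 20 lipid and lysosome genes 17 were higher and 1, Apoe, lower, with a median of 2.05 against 0.915 over all genes. Of the 14 pump and MiT/TFE genes 9 were higher and none lower. Of 8 resident macrophage genes 7 were lower and none higher, with a median of 0.281. The 7 include the gate genes Mrc1 and F13a1, whose levels the gate shapes, and of the other 6 genes 5 were lower (Lyve1, Cd163, Cbr2, Stab1 and Pf4). Cd36 and Lpl, which many fat cells express, were among the 17. The adipocyte markers were lower in suffix 2, and their part in these differences was not tested.

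In the aging matrix the genes were scarce. Trem2 and Spp1 had 0 UMIs in the 113 gated nuclei, where 3 UMIs would be 7.62 CPM. Gpnmb had 1 UMI, with suffix 3. Atp6v0d2 had 9 UMIs, all in 1 nucleus of suffix 3. The levels reached in suffix 2 of the 3-month matrix, 2188 CPM for Gpnmb, lie far above the upper interval ends here, which were 16.5, 39.5 and 72.6 CPM by suffix, although the 2 matrices are separate runs whose depth differs.

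Lgals3, Cd84, Mitf and Cd9 had UMIs in gated nuclei of every library of the aging matrix. Lgals3 was at 26.9 CPM (9.86 to 58.5), 75.0 (30.1 to 154) and 313 (200 to 465) in gated nuclei of suffixes 1, 2 and 3. Mitf was at 349 (276 to 436), 450 (324 to 608) and 1146 (919 to 1412), and Cd84 at 71.6 (40.9 to 116), 203 (122 to 318) and 248 (149 to 387). Suffix 3 was above suffix 1 for all 3 genes, with ratios of 11.6 (4.64 to 34.8), 3.28 (2.39 to 4.51) and 3.46 (1.68 to 7.19), and above suffix 2 for Lgals3, at 4.17 (1.74 to 11.5), and Mitf, at 2.55 (1.75 to 3.77). Few nuclei carry these values. In suffix 3, 3 nuclei held 17 of the 24 Lgals3 UMIs and 1 nucleus held 30 of the 88 Mitf UMIs. Cd9 did not follow this order, at 76.1 CPM (44.3 to 122), 10.7 (0.271 to 59.7) and 52.1 (14.2 to 133), from 17, 1 and 4 UMIs. By the 2-fold measure, 3 of 4 genes were higher in suffix 3 than in suffix 1, against 12.5% of 3336 genes, and 2 of 3 than in suffix 2, against 14.2% of 1715. Of the gate genes, Ptprc was at 201 CPM in suffix 1 and 1016 in suffix 3, Dock2 at 300 and 1068, Mrc1 at 506 and 2410, and F13a1 at 1379 and 964. In these gated nuclei the adipocyte markers summed to 4678, 1542 and 951 CPM. The macrophage markers, which include the gate genes, summed to 3608, 5643 and 7621 CPM. The part of that shift in the differences was not tested. Of the 33 gated nuclei of suffix 1, 7 lay outside the macrophage-like cluster. The 33 held 223398 UMIs, while all 78 macrophage-like nuclei of that suffix held 108156. Most UMIs behind the gated levels of suffix 1 therefore came from those 7 nuclei. In macrophage-like nuclei the ratios of suffix 3 over suffix 1 were 7.78 (3.16 to 24.8) for Lgals3, 1.44 (1.06 to 1.97) for Mitf and 0.798 (0.503 to 1.28) for Cd84.

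In the 368 macrophage-like nuclei of the aging matrix Lgals3 kept that order, at 46.2, 62.4 and 359 CPM (277 to 459), with 18 of 82 nuclei of suffix 3 positive and 18 UMIs in 1 of them. Trem2 had 6 UMIs in all, 5 of them with suffix 3, and Gpnmb had 3. By the 2-fold measure 4 of 4 genes were higher in suffix 3 than in suffix 2 (background 8.08%) and 1 of 4, Lgals3, than in suffix 1 (7.27%). Cd84 and Mitf did not keep the order of the gated nuclei. Cd84 was at 324 CPM (225 to 450), 117 (86.1 to 156) and 258 (189 to 345) and Mitf at 573 (440 to 735), 257 (210 to 312) and 826 (698 to 970), so that suffix 2 was lowest. With Cd9, 3 of 4 genes were at least 2-fold lower in suffix 2 than in suffix 1 (background 13.7%).

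Against all other nuclei of the aging matrix, 5 of 7 genes were at least 2-fold higher in gated nuclei, where 13.9% of 18433 genes were. Cd84 had a ratio of 38.8 (28.1 to 52.7), Itgax 18.7 (3.58 to 62.2), Atp6v0d2 45.7 (18.9 to 100), from the nucleus named above, Lgals3 12.9 (8.93 to 18.1) and Mitf 3.72 (3.23 to 4.27). Cd9 and Gpnmb were not higher, at 0.946 (0.592 to 1.44) and 0.666 (0.0168 to 3.75). By library it was 2 of 5 genes in suffix 1 (background 10.1%), 3 of 5 in suffix 2 (15.9%) and 5 of 6 in suffix 3 (17.0%). The 5 in suffix 3 include Gpnmb, called on 1 UMI in gated nuclei, and Atp6v0d2, whose 9 gated UMIs lay in 1 nucleus.

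Cd9 and Gpnmb had other main sources in this matrix. Gated and macrophage-like nuclei held 1.53% of 3209 Cd9 UMIs and 1.45% of 207 Gpnmb UMIs, being 1.36% of the nuclei. Schwann or nerve-like nuclei had Cd9 at 688 CPM (650 to 727), 392 (309 to 490) and 225 (161 to 305) by suffix. Lgals3 was also present there, at 38.6, 61.1 and 170 CPM (116 to 241), so that its order over the libraries was that of the macrophages.

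At least 3 members were found in 11 of the 113 gated nuclei (9.73%, 4.96 to 16.8), by suffix 5 of 33, 0 of 47 and 6 of 33. At 1000 UMIs it was 2 of 106 (1.89%, 0.229 to 6.65), and 8 of 323 macrophage-like nuclei (2.48%, 1.08 to 4.82). No pair of members had intervals apart among 14 tested in gated nuclei. In macrophage-like nuclei at their own depth 3 of 20 pairs did, and none of 14 at 1000 UMIs. Lgals3 was in 17 of 87 nuclei with Cd84 (19.5%, 11.8 to 29.4) and 21 of 281 without (7.47%, 4.69 to 11.2). Nuclei with at least 2 members (43) were set against those with none (28), where 15.2% of 3214 genes were higher and 5.07% lower. Of 9 measured lipid and lysosome genes 2 were higher, Cd36 and Plin2, which adipocytes express too, with a list median of 1.22 against 1.19 over all genes. Of 5 resident macrophage genes 2 were lower, the gate genes Mrc1, at 0.580 (0.427 to 0.798), and F13a1, at 0.565 (0.411 to 0.788), and in nuclei both gated and macrophage-like neither was, at 1.14 (0.838 to 1.57) and 1.06 (0.760 to 1.50). The 43 nuclei held 246895 UMIs, and the 37 of them that were also macrophage-like held 107035. In nuclei both gated and macrophage-like, 37 against 26, Cd36 had 1.63 (1.18 to 2.30) and Plin2 2.42 (0.713 to 12.8), which includes 1. The adipocyte markers summed to 3896 CPM in the 43 and 1015 in the 28 nuclei, and their part was not tested. The coexpression of Gpnmb, Atp6v0d2 and Lgals3 seen at 3 months could not be assessed at the 1, 9 and 37 UMIs that these gated nuclei held.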

How the data were processed

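Nuclei of iBAT from 5 samples (WT, Ucp1-STX4KO, 2, 12 and 24 months) were sequenced by 10x Genomics snRNAseq. Per the labels, the authors aligned reads to mm10 with Cell Ranger 6.1.2, used Seurat 4.1.0, and deposited 2 matrices of UMI counts, unnormalised, with genes as features and nuclei as barcodes. The annotation release was not given in the sources used here. No column belonged to another series (0).

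Nuclei with at least 200 UMIs and 100 genes were kept. The stated upper limits (2000 UMIs, 3000 genes) remove most nuclei of the 3-month matrix and were an alternative only. Counts were summed per class and library and divided by the class's total UMIs (CPM). Clusters came from Leiden clustering (scanpy 1.11.5, leidenalg 0.10.2, resolution 1, 3000 variable genes, 30 components, 20 neighbours) with the 9 members left out, and were named "-like" where at least 3 markers of a list were raised. Cell type names are rebuilt in this way, since no annotation of nuclei was used here. Doublets were not called, and leaving out the 5% of nuclei with the most UMIs was an alternative. For thinned values each nucleus was reduced at random to 1000 UMIs. Sums have exact Poisson intervals, shares Clopper-Pearson intervals and ratios exact conditional binomial intervals (Python 3.11.15, numpy 2.4.6, scipy 1.17.1, pandas 2.3.3), and ratio tables were tested on simulated data. Genes needed 20 UMIs in the nuclei compared. With 1 library per condition and nuclei that are not independent samples, no test across conditions was run.

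Genes named beyond the lists were the 10 highest and 10 lowest ratios of nuclei with at least 3 members over nuclei with none, among genes with 50 UMIs over both and the same direction in suffix 2, the 1 library with enough nuclei of both. The members and lists were chosen with earlier results of these data known. Alternatives were other gates, clusters in place of the gate, the stated limits, thinning, and single libraries; leaving macrophage-like nuclei out of the nuclei compared with was added after seeing the data.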

Additional observations from a re-analysis of the deposited data

Results flagged for a closer look

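Macrophage-like nuclei that failed the gate are outside the nuclei in which the members were to be measured, yet held signal above the adipocyte-like background. In suffix 2 of the 3-month matrix Gpnmb was at 2906 CPM in these 678 nuclei and at 48.3 CPM in adipocyte-like nuclei. Atp6v0d2 was at 1863 CPM in them and at 27.0 CPM in adipocyte-like nuclei. With suffix 1, 12 nuclei were of this kind, and they held 5 Gpnmb UMIs and 2 Atp6v0d2 UMIs.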

How the results depend on the processing

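The number of gated nuclei of the 3-month matrix (724) was 161 with all 4 gate genes required, 1337 with macrophage-like clusters in place of the gate, 137 under the stated limits and 238 when gated after thinning. The 8 members at least 2-fold higher were 5 under the stated limits, where Cd9 turned to a ratio of 0.898 (0.354 to 1.91). The share of gated nuclei with 3 or more members (68.6%) was 42.2% with all 4 gate genes, 61.9% with 1 gene of each pair, 73.0% in macrophage-like clusters, 20.5% in suffix 1, 75.3% in suffix 2 and 51.0% after thinning. The share of Gpnmb-positive nuclei with Atp6v0d2 (86.6% at own depth) was 80.9% after thinning and 100% of the 4 nuclei of suffix 1.

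In the aging matrix, 113 gated nuclei became 29 with all 4 gate genes, 180 with 1 gene of each pair, 368 with clusters, 64 under the stated limits and 57 after thinning. The 5 members at least 2-fold higher were 3 under the stated limits, 2 in suffix 1 and 3 in suffix 2. The share with 3 or more members (9.73%) was 0% in suffix 2, 18.2% in suffix 3 and 1.89% after thinning. The cause of these shifts was not tested. Of 81 alternative ratios of single members at 3 months, 78 stayed above 1 and 58 moved beyond the counting interval. In the aging matrix 52 of 88 were above 1 and 38 moved.

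The main limits are 1 library per condition, suffixes that name no sample, mice whose division is not stated, and few UMIs: 3 Trem2 UMIs in gated nuclei of suffix 1 and none in the aging matrix. No paired analysis was possible because each group has 1 library and no test was run.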
